A study of Mus musculus with 4 samples.

Results

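Plasmacytoid dendritic cells (pDC) of tumor-draining lymph nodes were the cells that the study's authors named pDC in their table of antigen-presenting cells (APCs). There were 62 pDC among 1731 annotated APCs and 5825 annotated cells. Of these, 9 came from the library of mice fed RGX-104 and 53 from the library of mice fed control chow. RGX-104 activates the liver X receptors (LXR), which are nuclear receptors that sense oxysterols and drive cholesterol export and fatty acid synthesis. All mice were wild type and carried injected tumor cells. The RGX-104 mice ate chow with the compound from day 3 after injection, the control mice ate control chow, and nodes of both were taken on day 8 and digested with collagenase and DNase. T cells and APCs were sorted, and their transcripts were read per cell from the 5′ end on the 10x platform. Each chow was 1 RNA library, so no replicate spread, standard deviation or p-value exists for any comparison here. The number of mice behind a library is not given in the sources used here.

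The libraries held 8671 barcodes and 38480769 unique molecular identifiers (UMIs) for RGX-104, and 7346 barcodes and 31530931 UMIs for control. The pDC had a median of 7848 UMIs and 2773 genes in the RGX-104 library and 9253 UMIs and 3012 genes in the control library, or 73260 and 489869 UMIs in all. Levels are in CPM: UMIs of a gene for every 1000000 UMIs summed over the cells compared. Intervals in brackets are 95% intervals that cover counting error only: cells of 1 library share their mice, sort and capture. Both libraries held 95 barcodes of the same sequence, none of them a pDC.

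Plasmacytoid dendritic cells circulate in blood and enter lymph nodes through high endothelial venules. They are known as the main producers of type I interferon when Toll-like receptors in their endosomes meet nucleic acids of viruses or dying cells. The basic helix-loop-helix factor Tcf4 (E2-2) keeps them apart from conventional dendritic cells, which express Id2, Batf3 or Zbtb46. Their cytoplasm, rich in rough endoplasmic reticulum, resembles that of an antibody-secreting cell, hence the name.

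Promoters of 3 marker genes and of the LXR target with the largest ratio between chows are printed to show the sequence in front of genes on which the results turn. They run from 250 bases before to 50 after the annotated start, taken from RefSeq (GRCm38.p6), on the strand of the gene. For Siglech and Abca1 that start lies inside the outer bounds of the gene given below. Capitals mark CAGGTG or its reverse complement CACCTG, an E-box of the kind that Tcf4 and related factors bind, in Siglech (chr7:55767934-55768233, plus strand), Klk1 (chr7:44225110-44225409, plus strand) and Ccr9 (chr9:123766961-123767260, plus strand). In Abca1 (chr4:53159846-53160145, minus strand) capitals mark the reverse complement of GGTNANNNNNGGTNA, a relaxed spelling of the direct repeat that LXR with its partner RXR binds.
Siglech: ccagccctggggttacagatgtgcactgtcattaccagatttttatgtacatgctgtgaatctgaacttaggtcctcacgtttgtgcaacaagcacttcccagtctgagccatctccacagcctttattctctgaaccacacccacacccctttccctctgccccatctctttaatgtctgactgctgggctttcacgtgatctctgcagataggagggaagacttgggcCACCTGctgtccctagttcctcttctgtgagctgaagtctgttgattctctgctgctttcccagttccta
Klk1: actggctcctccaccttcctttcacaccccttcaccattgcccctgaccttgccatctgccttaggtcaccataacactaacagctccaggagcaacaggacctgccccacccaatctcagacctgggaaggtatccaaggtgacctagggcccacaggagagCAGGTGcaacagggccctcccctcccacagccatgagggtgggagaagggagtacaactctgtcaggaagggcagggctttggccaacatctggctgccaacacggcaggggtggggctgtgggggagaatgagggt
Ccr9: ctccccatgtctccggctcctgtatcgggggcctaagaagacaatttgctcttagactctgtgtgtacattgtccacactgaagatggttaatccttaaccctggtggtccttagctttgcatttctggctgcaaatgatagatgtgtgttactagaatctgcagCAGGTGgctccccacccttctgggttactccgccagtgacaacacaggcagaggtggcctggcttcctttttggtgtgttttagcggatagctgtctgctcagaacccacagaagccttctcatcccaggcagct
Abca1: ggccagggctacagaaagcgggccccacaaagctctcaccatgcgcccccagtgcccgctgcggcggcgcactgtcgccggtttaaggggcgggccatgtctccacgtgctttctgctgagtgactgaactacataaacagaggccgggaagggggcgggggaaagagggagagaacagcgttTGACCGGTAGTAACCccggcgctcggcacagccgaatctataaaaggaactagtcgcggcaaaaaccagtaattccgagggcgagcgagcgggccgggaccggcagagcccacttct
The E-box began 20 bases before the start in Siglech, 87 bases before it in Klk1 and 85 bases before it in Ccr9. Both motifs were searched on both strands. CAGGTG stood in 6634 of all 32817 windows of this length (20.2%), and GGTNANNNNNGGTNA in 236 (0.719%). Of the 5 markers below, 3 had a window in the table and all 3 held the E-box. Of the 20 named genes highest in pDC, 15 had a window and 7 held it. Among the 27 listed LXR targets, 19 had a window, 5 held the E-box and 4 held the repeat: Abca1, Acsl3, Fasn and Srebf1. A gene counted if any of its windows held the motif, so these gene counts are not directly comparable with the shares of single windows. A match of letters is a description of these windows and no measured binding.

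The label was checked against 5 given markers. Siglech encodes the sialic-acid-binding receptor Siglec-H. It had 2293 CPM in RGX-104 pDC and 2582 CPM in control pDC, against 6.38 CPM in the other RGX-104 APCs and 7.48 CPM in the other control APCs. Cox6a2, a subunit of cytochrome c oxidase otherwise known from striated muscle, had 1392 and 1800.5 CPM in RGX-104 and control pDC, against 1.62 and 1.03 CPM in the other APCs of these libraries. All 53 control pDC and all 9 RGX-104 pDC had Siglech UMIs. Siglech was also one of the genes that the authors' naming could draw on, and barcodes outside the annotation held it too.

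Klk1, a tissue kallikrein, had 792 CPM in RGX-104 pDC and 859 CPM in control pDC, against 0.101 CPM, a single UMI, in the other RGX-104 APCs and 0.587 CPM in the other control APCs. Its reads may be shared with near-identical kallikrein genes of the same cluster, among them Klk1b27. Ccr9, the receptor for the gut and thymus chemokine CCL25, had 437 and 476 CPM in RGX-104 and control pDC, against 12.0 and 15.8 CPM in other APCs of the same 2 libraries. Tcf4 had 1269 and 1384 CPM in RGX-104 and control pDC, against 70.9 and 93.6 CPM in the other APCs. For all 5 genes the nearest other type was the one that the authors named pre-DC2, with 21 RGX-104 and 24 control cells. Pre-DC2 held Tcf4 at 686 and 895 CPM, Ccr9 at 116 and 168 CPM and Siglech at 207 and 191 CPM in the RGX-104 and the control library. Cox6a2 and Klk1 separated pDC from pre-DC2 most, since pre-DC2 held Cox6a2 at 45.5 and 9.09 CPM and Klk1 at 4.13 and 13.6 CPM. On GRCm38 (mm10), Siglech (ENSMUSG00000051504) lies on chromosome 7 from 55768154 to 55779448, Klk1 (ENSMUSG00000063903) on chromosome 7 from 44225360 to 44229622, Cox6a2 (ENSMUSG00000030785) on chromosome 7 from 128205435 to 128206366 and Ccr9 (ENSMUSG00000029530) on chromosome 9 from 123767211 to 123783457. All 4 are protein coding.

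Of the 9 RGX-104 pDC, 5 had UMIs of all 5 markers, 2 of 4 markers and 2 of only 2 markers. Of the 53 control pDC, 33 had all 5, 19 had 4 and 1 had 3. Among pre-DC2, 12 of 21 RGX-104 and 10 of 24 control cells had at least 3 markers, but only 1 and 2 cells had at least 4. The 2 RGX-104 pDC with 2 markers held 17 and 11 Siglech UMIs. They carried neither Cox6a2, Klk1 nor Ccr9, and results that rest on them are given with and without them, a choice made after their values were seen.

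Free RNA in the droplets can put UMIs into cells that do not express a gene, so each cell was thinned to 4000 UMIs and compared with T cells, which should lack Siglech and Cox6a2. No pDC was shallower, while 127 RGX-104 and 111 control APCs of other types and 550 RGX-104 and 615 control T cells were left out. Expected shares of cells with a Siglech UMI were 99.9% of RGX-104 and 100% of control pDC, against 0.1% of RGX-104 and 0.0% of control T cells. Without thinning, all pDC had one, at median depths of 7848 and 9253 UMIs in pDC and 5048 and 4944 UMIs in T cells. Cox6a2 was expected in 77.7% and 90.5% of thinned pDC, against 0.0% and 0.1% of thinned T cells. Ccr9, which T cells also express, was expected in 58.2% and 73.3% of pDC and in 9.0% and 7.9% of T cells.

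**Figure D1:**
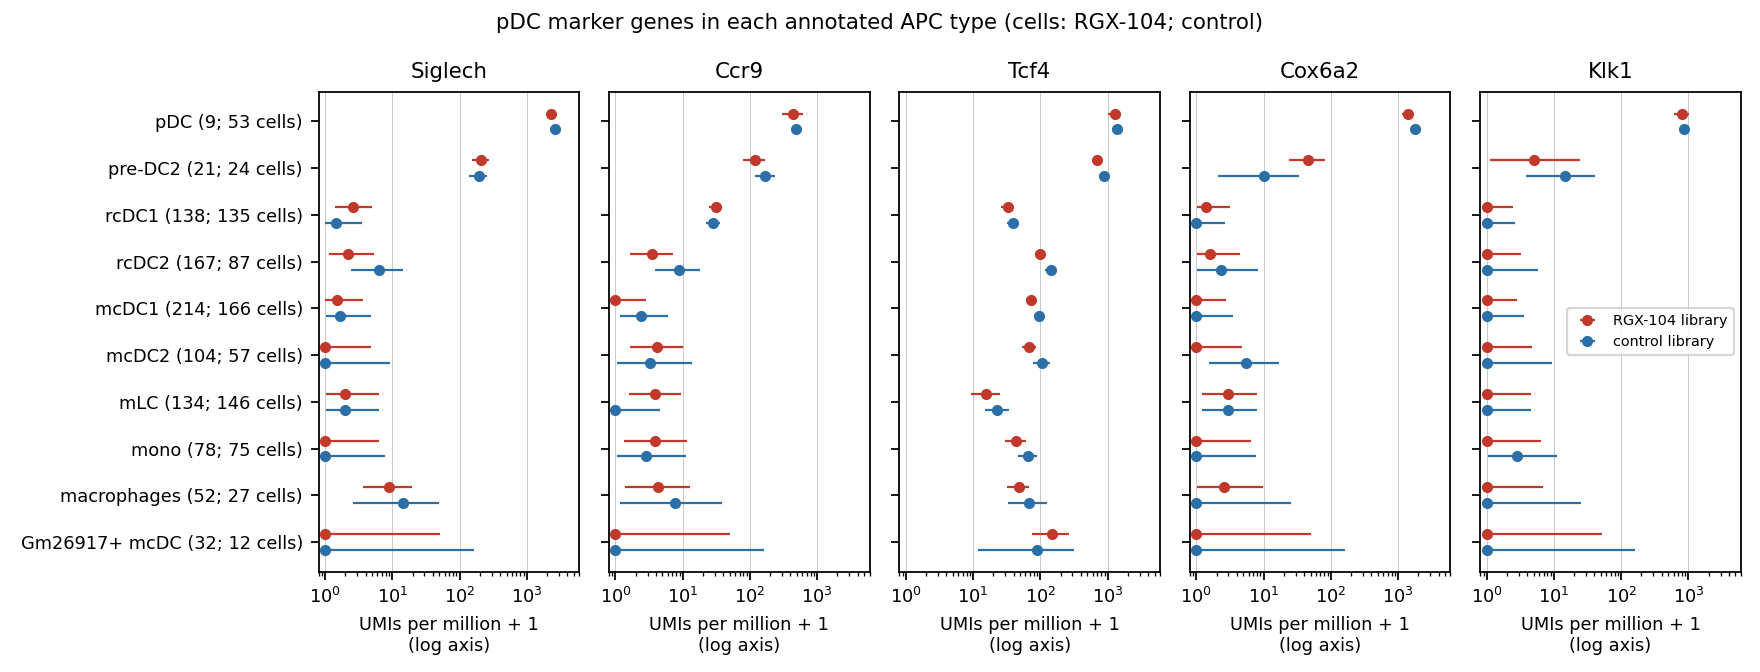
Level of the 5 markers in each of the 10 annotated APC types, as CPM plus 1 on a log axis, with the RGX-104 library (red) above the control library (blue) and 95% counting intervals as bars. pDC lie at the right end for all 5 markers, and pre-DC2 come next, at 207 and 191 CPM for Siglech.

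Across all genes, pDC were set against all other annotated APCs of the same library. The authors named the cells from their expression, so these values describe the cells and test nothing. A gene was measured with at least 20 UMIs over the compared cells, and a gene at 0 UMIs was set at a floor of 3 counts. In the RGX-104 library 2419 of 10959 measured genes were at least 2-fold higher in pDC (22.1%) and 790 at least 2-fold lower (7.21%). In the control library 1904 of 10499 were at least 2-fold higher (18.1%) and 1544 at least 2-fold lower (14.7%). The RGX-104 counts lean upward by construction. In 73260 UMIs, 1 UMI could put a weakly expressed gene past 2-fold. A gene at 0 took the floor and passed downward only where the other APCs stood well above that floor. Without each gene's top cell in each group, 1133 genes were higher and 972 lower in the RGX-104 library. The counts of list members in RGX-104 pDC share this limit. The median log2 ratio over all measured genes was -0.19 in the RGX-104 and 0.15 in the control library. Scaling by TMM factors moved these medians to -0.80 and -0.23. It turned the higher and lower counts to 1292 and 1622 in the RGX-104 and to 1142 and 2206 in the control library, so a list with a median near 0 has no fixed direction here.

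pDC had the highest level of all types with at least 20 cells for 2534 genes in the RGX-104 and 2395 genes in the control library. These include ranks within counting error, since pDC were 9 and 53 cells: the interval of the ratio to the next type lay above 1 for 270 and 509 genes. For 25 and 30 of these the next type was at least 10-fold lower. pDC had the lowest level for 1516 genes in the RGX-104 and 638 genes in the control library. pDC also carried more kinds of transcript per UMI than other types. Thinned to 4000 UMIs, their median was 1800 genes in the RGX-104 and 1782 genes in the control library, where the medians of the other types ran from 1345 to 1645 and from 1363 to 1679.

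The genes that stood highest in control pDC over other control APCs, ranked by the lower bound of the ratio, were of several kinds. Ly6d, a surface protein also found on early B lineage cells, had 3426 CPM in RGX-104 and 3713 CPM in control pDC, against 7.18 and 7.92 CPM in the other APCs, a ratio of 477 (365 to 629.7) and 469 (358 to 627). Ctsl, the endosomal protease cathepsin L, had 1556 and 1292 CPM in pDC, against 26.1 and 15.8 CPM. Pacsin1, an adaptor of endocytosis, had 450.4 and 361 CPM in pDC, against 3.85 and 4.25 CPM. Genes that are textbook products of other tissues stood beside these. Atp2a1, the calcium pump of fast skeletal muscle, had 218 and 216 CPM in pDC, against 0.506 and 1.91 CPM in the other APCs, a ratio of 114 (63.6 to 220.2) in the control library. Cdh5, the cadherin of endothelial junctions, had 68.3 and 161 CPM in pDC and no UMI in the other control APCs, at least 367-fold higher in control pDC against the floor of 3 counts over the group. Grm8, a glutamate receptor known from neurons, had 27.3 and 79.6 CPM in pDC and no UMI in the other control APCs, at least 181-fold higher in control pDC.

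Sh3bgr, which encodes an SH3-binding glutamic-acid-rich protein, had 287 and 249 CPM in pDC and 0.147 CPM, 1 UMI, in the other control APCs, a ratio of 1698 (299 to 67627). Epha2, an ephrin receptor, had 81.9 CPM in RGX-104 and 114 CPM in control pDC. The other named genes of this group were Klk1b27, Mctp2, Pir, Hs3st1, Smim5, Sla2, Eldr and Chdh, with control ratios between 88.4 for Eldr and 849 (147 to 34085) for Klk1b27, which had 1 UMI in the other control APCs. Apart from Cox6a2, the mitochondrial cytochrome c oxidase list showed no such difference. Of its 14 measured genes 1 was at least 2-fold higher in each library and none lower. The widely expressed paralog Cox6a1 had 355 and 365 CPM in pDC, against 338 and 383 CPM in other APCs, a ratio of 1.05 (0.685 to 1.54) and 0.955 (0.816 to 1.11).

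At the low end stood genes of mature, migratory and inflammatory APCs. Ccl5, a T cell chemokine, had 27.3 CPM in RGX-104 and 20.4 CPM in control pDC, against 7042 and 6824 CPM in other APCs, 334-fold lower in control pDC (182 to 697). Fscn1, the actin bundler of mature dendritic cells, had 0 and 10.2 CPM in pDC, against 1797 and 2274 CPM. Lyz2, the lysozyme of myeloid cells, had 54.6 and 14.3 CPM in pDC, against 2734 and 1666 CPM. Il1b, H2-M2, Cxcl16, Cd63 and Bcl2a1b had no UMI in the 53 control pDC. In control pDC they were at least 80.3-fold (Cd63) to at least 136-fold (Bcl2a1b) lower than in other control APCs, where Bcl2a1b had 833 CPM and Il1b had 592 CPM. Reads of Bcl2a1b may be split with its near-identical copies. S100a4, a calcium-binding protein of motile cells, and Apol7c, an apolipoprotein L of dendritic cells, completed the named genes, at 8.17 and 2.04 CPM in control pDC, against 1114 and 845 CPM.

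**Figure D2:**
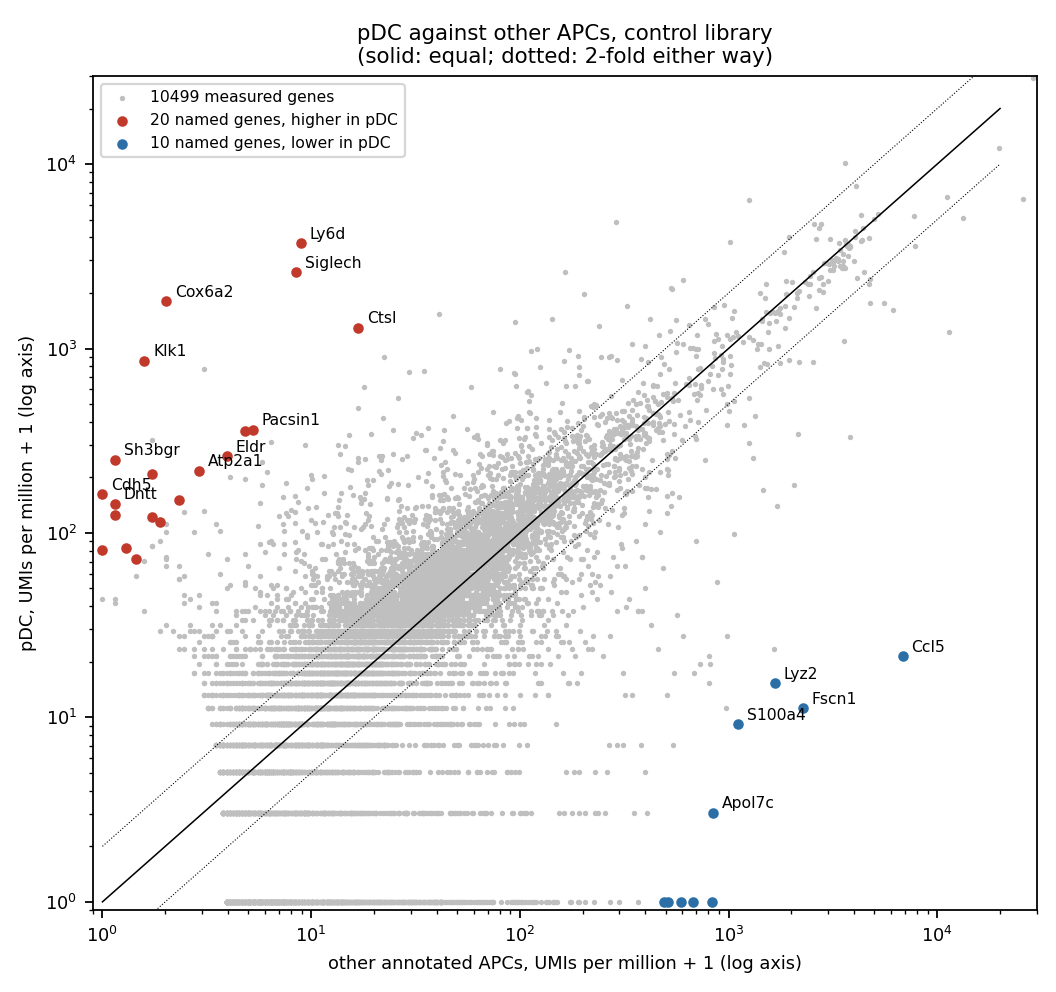
Level of each of the 10499 measured genes in control pDC (vertical) against the other control APCs (horizontal), as CPM plus 1 on log axes; the solid line marks equal levels and the dotted lines 2-fold either way. The 20 named genes higher in pDC (red) reach 3713 CPM for Ly6d, and 5 of the 10 named lower genes (blue) lie on the bottom edge at 0 UMIs.

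Transcription factors followed the division between the lineages. Of 16 listed factors of pDC development, all measured, 12 were at least 2-fold higher and 1 lower in RGX-104 pDC, and 13 higher and 1 lower in control pDC, with medians of 2.17 and 1.94 on the log2 scale (1.56 and 1.56 with TMM factors). Runx2, needed for pDC to leave the bone marrow, had 1010.1 and 753 CPM in RGX-104 and control pDC, against 32.5 and 33.7 CPM in other APCs. Irf8, the interferon regulatory factor shared by pDC and type 1 conventional dendritic cells, had 2675 and 2354 CPM in pDC, against 559.8 and 606 CPM, and the nearest other type was rcDC1 at 1087 and 1188 CPM. Bcl11a, Mef2c and Spib were also higher in pDC of both libraries, by 9.93- and 9.16-fold, 7.42- and 7.45-fold and 19.3- and 8.08-fold. The member that was lower was Spi1 (PU.1), a myeloid factor, at 68.3 and 49.0 CPM in pDC, against 385 and 395 CPM.

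Of 14 listed factors of conventional dendritic cells, 1 was at least 2-fold higher and 7 lower in RGX-104 pDC, and 2 were higher and 7 lower in control pDC. Id2, the inhibitor of E proteins such as Tcf4, had 0 CPM in RGX-104 and 18.4 CPM in control pDC, against 912 and 814 CPM in other APCs. Batf3 had 0 and 2.04 CPM in pDC, against 220.4 and 254 CPM, and Zbtb46 had no UMI in any pDC, against 59.2 and 68.2 CPM. Irf4, a factor of type 2 dendritic cells and plasma cells, went the other way, at 232 and 135 CPM in pDC, against 46.3 and 38.4 CPM. Mycl was 2-fold higher in the control library alone, with a ratio of 1.06 in the RGX-104 and 2.25 in the control library.

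Some genes of the endosomal sensing machinery were higher, while the list as a whole had no fixed direction. Of 36 listed genes, 11 of 35 measured were at least 2-fold higher and 2 lower in RGX-104 pDC, and 11 of 34 higher and 6 lower in control pDC. The list's median log2 ratio was -0.26 in the RGX-104 and 0.43 in the control library, and -0.87 and 0.05 with TMM factors. With these factors 7 genes were higher and 7 lower in the RGX-104 library, and 8 higher and 9 lower in the control library. Tlr7, the receptor for single-stranded RNA, had 164 and 112 CPM in RGX-104 and control pDC, against 6.88 and 7.33 CPM, and 5 of 9 and 30 of 53 cells held a UMI. Tlr9, the receptor for CpG DNA, had 68.3 and 65.3 CPM, against 14.2 and 15.0 CPM, with UMIs in 4 of 9 and 22 of 53 cells. Their chaperone Unc93b1, the endolysosomal transporter Slc15a4 and the exonuclease Pld4 had control ratios of 2.97, 4.31 and 5.72. Tlr3, the sensor of double-stranded RNA in type 1 conventional dendritic cells, had no UMI in any pDC, against 23.3 and 28.6 CPM in other APCs. None of the 20 listed type I and III interferon genes had a UMI in pDC or in any other APC, which at this depth allows up to 3 counts in 73260 UMIs of RGX-104 pDC and in 489869 UMIs of control pDC.

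The type I interferon response list showed no common direction in the control library, where 7 of 37 measured genes were at least 2-fold higher in pDC and 11 lower. In the RGX-104 library 7 of 38 were higher and 1 lower, and with TMM factors 7 were higher and 6 lower. Over all measured genes the shares were 18.1% higher and 14.7% lower in the control library. In the RGX-104 library they were 22.1% higher and 7.21% lower. The numbers of list members that were higher were therefore near the share of all genes. Higher members included Irf7, the factor that amplifies interferon, at 300.3 and 237 CPM in RGX-104 and control pDC, against 73.7 and 62.9 CPM. They also included Bst2 (tetherin, the pDC antigen PDCA-1), at 4668 and 4838 CPM, against 236 and 287 CPM. Induced genes such as Isg15, Rsad2 and Oas1a lay at 0.482-, 0.137- and 0.110-fold of other APCs in the control library.

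The secretory pathway stood higher as a group. Of 38 measured genes of 39 listed, 21 in RGX-104 and 18 in control pDC were at least 2-fold higher, and none was at least 2-fold lower. With TMM factors, 9 were higher and 0 lower in the control library. Mzb1, a chaperone of antibody-secreting cells, had 232 and 194 CPM in RGX-104 and control pDC, against 1.92 and 3.81 CPM in other APCs. Xbp1, the factor that expands the endoplasmic reticulum, had 423 and 331 CPM, against 55.7 and 59.5 CPM. Summed over the list, pDC held 12339.6 CPM in the RGX-104 and 11468 CPM in the control library, against 5426 and 5828 CPM, a ratio of 2.27 (2.13 to 2.43) and 1.97 (1.91 to 2.02).

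Genes otherwise known from lymphocytes were part of the pDC profile. Of 10 measured genes of the 18 on that list, 7 were at least 2-fold higher and none lower in RGX-104 pDC, and 8 higher and 1 lower in control pDC. A gene nearly absent from other APCs, such as Dntt in the control library, was measured only because pDC held enough of its UMIs. These counts therefore lean upward. The sum over all 18 listed genes uses no UMI minimum. Its ratio to other APCs was 31.1 (27.9 to 34.5) in RGX-104 and 28.0 (26.3 to 29.8) in control pDC. Dntt, the terminal transferase of antigen receptor rearrangement, had 341 CPM in RGX-104 and 143 CPM in control pDC, against 0.147 CPM, 1 UMI, in the other control APCs, and 7 of 9 and 33 of 53 pDC held a UMI. Iglc3, a constant segment of the lambda light chain whose reads may be shared with Iglc2, had 464 and 776 CPM in pDC, against 1.82 and 2.05 CPM. Cd4 had 150.2 and 261 CPM in pDC, with UMIs in 4 of 9 and 37 of 53 cells.

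Homing receptors differed gene by gene. Of 25 and 23 measured genes, 8 and 8 were at least 2-fold higher and 4 and 6 lower in RGX-104 and control pDC. Besides Ccr9, S1pr4 and Cxcr3 were higher, by 15.0- and 11.3-fold and by 9.99- and 3.25-fold. Ccr7, the receptor that brings mature dendritic cells into the node through lymph, had 13.7 and 22.5 CPM in RGX-104 and control pDC, against 1537 and 1649 CPM. Among receptors for cytokines, both chains of the type I interferon receptor were higher in pDC, Ifnar1 at 259 and 245 CPM, against 68.3 and 55.1 CPM. Ifngr1, a chain of the interferon gamma receptor, was lower, at 41.0 and 51.0 CPM, against 219 and 241 CPM.

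Antigen presentation and costimulation were lower in pDC. Of 24 measured class II genes, 3 were at least 2-fold higher and 13 lower in RGX-104 pDC, and 3 higher and 8 lower in control pDC. The higher ones in the control library were the proteases Ctsl, Ctsb and Ctsd. H2-Aa, a class II chain, had 1188 CPM in RGX-104 and 3597 CPM in control pDC, against 8353 and 7845 CPM in other APCs. Of the costimulation and coinhibition list, 2 of 16 measured genes were at least 2-fold higher and 7 lower in RGX-104 pDC, and 1 of 14 higher and 9 lower in control pDC. Cd83, which stabilises class II on the surface, had 27.3 and 20.4 CPM, against 855 and 803 CPM. Cd80 had no UMI in any pDC, and Cd86 had 13.7 and 4.08 CPM, 1 and 2 UMIs.

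Of the cytokines and chemokines, 2 of 23 measured genes were at least 2-fold higher and 11 lower in RGX-104 pDC, and 3 of 23 higher and 16 lower in control pDC. The 3 were the chemokine Ccl4, Tgfb1, and Il12a, the p35 subunit of interleukin 12 and 35. Ccl4 had 764 CPM in RGX-104 and 1445 CPM in control pDC, against 179 and 142 CPM in other APCs. It was spread unevenly: 1 cell held 60.7% of its UMIs in RGX-104 pDC and 1 cell 19.4% in control pDC, and its coefficient of variation over control pDC was 171%. Il12a had 13.7 CPM in RGX-104 pDC, 1 UMI, and 65.3 CPM in control pDC, with UMIs in 1 of 9 and 16 of 53 cells, and 1.32 CPM in the other control APCs. Il12b, the subunit that forms interleukin 12 with it, had no UMI in any pDC. Of the proliferation list none of 16 measured genes was at least 2-fold higher, while 3 were lower in RGX-104 and 14 in control pDC. No pDC had a positive S or G2M score in the authors' table.

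**Figure D3:**
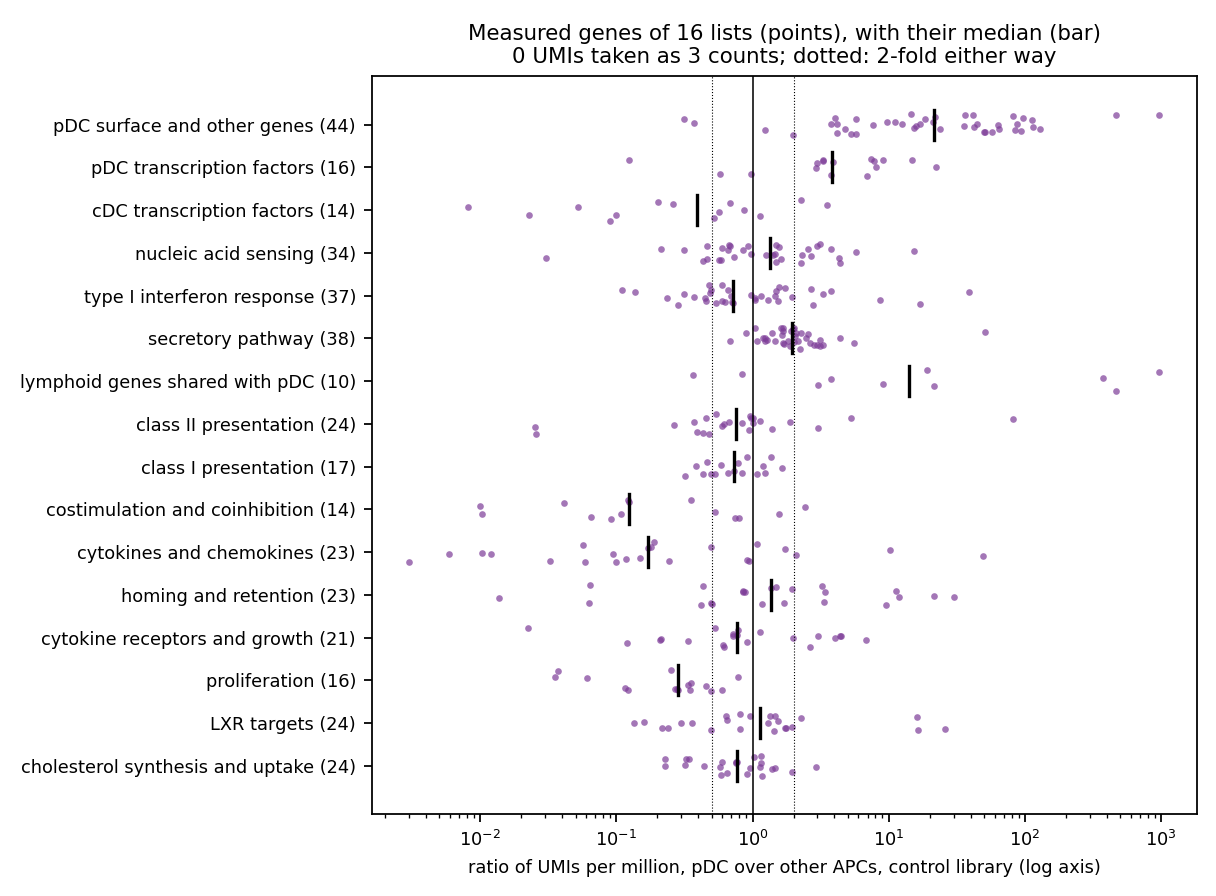
Ratio of CPM, control pDC over other control APCs, for the measured genes of 16 lists (points, number in brackets) with the list median (black bar) on a log axis; genes at 0 UMIs in pDC are drawn at the floor of 3 counts, so their points are upper limits. The pDC lists and the secretory pathway lie right of 1, and costimulation, cytokines and proliferation lie left of it.

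Single pDC were alike in some defining genes and uneven in others. Over the 53 control cells the coefficient of variation of the CPM was 25.2% for Bst2, 32.3% for Siglech and 36.6% for Tcf4, counting error included, and 119% for Klk1. Cd8a was uneven: 27 of 53 control pDC held UMIs, with a coefficient of variation of 187%. Markers of other lineages were looked for in the same cells. T cell markers summed to 246 and 267 CPM in RGX-104 and control pDC, against 120.2 and 150.0 CPM in other APCs, and per cell they ran to 667 and 1635 CPM. Of their 15 genes, 9 had no UMI in RGX-104 pDC, Cd3e, Cd3d, Cd3g and Trac among them. In control pDC 4 had none (Trbc2, Lck, Bcl11b and Themis), so Cd3e, Cd3d, Cd3g and Trac did have UMIs there. No pDC had a T cell receptor contig, against 83.4% and 87.4% of RGX-104 and control T cells.

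B cell markers summed to 942 and 964 CPM in pDC, against 176 and 200.2 CPM, of which Ighm gave 54 of 69 UMIs and 387 of 472 UMIs. Ms4a1, Cd79a and Pax5 had no UMI in RGX-104 pDC. In control pDC only 2 of 15 B cell genes had none (Cr2 and Pou2af1), so Ms4a1, Cd79a and Pax5 did have UMIs there. Plasma cell markers summed to 655 and 490 CPM, against 136 and 134 CPM, with 10 and 5 of 12 genes at 0. NK cell markers summed to 300.3 and 376 CPM, against 76.0 and 65.5 CPM, with 9 and 7 of 11 genes at 0, Ncr1 and Klrb1c among them in both libraries. Monocyte and macrophage markers were lower, at 655 and 502 CPM, against 3870 and 2405 CPM, with C1qa, C1qb, Fcgr1 and Adgre1 at 0 in both. Stromal and endothelial markers summed to 273 and 245 CPM, against 16.7 and 21.3 CPM, with 7 and 6 of 10 genes at 0, Col1a1 and Dcn among them. Neutrophil, erythroid and platelet genes had no UMI in any pDC. The part of other lineages' transcripts in the profile was not tested.

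The comparison of chows set pDC of the RGX-104 library against pDC of the control library. With 1 library for each chow, the effects of chow, mice, sort and capture cannot be told apart. In RGX-104 pDC against control pDC, 224 of 4253 measured genes were at least 2-fold higher (5.27%) and 472 at least 2-fold lower (11.1%). The median log2 ratio was -0.01, and -0.20 with TMM factors, which changed the counts to 111 higher and 635 lower. The RGX-104 side of these counts is 9 cells with 73260 UMIs. The 5 markers summed to 6183 CPM in RGX-104 and 7102 CPM in control pDC, a ratio of 0.871 (0.788 to 0.961), with none 2-fold apart. Without the 2 RGX-104 cells that had only 2 markers the ratio was 1.06 (0.954 to 1.17). With the unannotated barcodes described below it was 0.840 (0.787 to 0.895). Cox6a2 had the lowest of their ratios, 0.773 (0.624 to 0.95), and 1.03 without the 2 cells that lacked it. None of 20 measured sensing genes and none of 38 measured secretory genes was 2-fold apart in either direction.

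Summed over the 27 listed LXR targets, RGX-104 pDC had 3344 CPM and control pDC 1584 CPM, a ratio of 2.11 (1.82 to 2.44). Of 11 measured, 7 passed 2-fold upward, 6 of them with an interval above 1, and 2 downward. With TMM factors 6 were higher, and the median log2 ratio was 1.26 (1.07 with TMM factors). The minimum of 20 UMIs over both groups favoured genes high in RGX-104 pDC, so this count and median lean upward. At their control levels Abca1 (5 control UMIs) and Srebf1, Fasn and Elovl5 (16 each) would not have reached it. Abca1, the cholesterol exporter (Ensembl ENSMUSG00000015243, mm10 chromosome 4, 53030789 to 53159988), had 16 UMIs in RGX-104 pDC and 5 in control pDC, or 218 CPM against 10.2 CPM, a ratio of 21.4 (7.49 to 74.7). It was found in 7 of 9 RGX-104 and 4 of 53 control cells, and the 2 RGX-104 cells without it were the 2 with only 2 markers. At 4000 UMIs per cell it was expected in 59.1% of RGX-104 and 3.3% of control pDC, 29.3% and 2.4% of other APCs, and 35.0% and 5.4% of T cells. T cells therefore showed it too under RGX-104, and a share from free RNA was not tested.

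Abcg1, which exports cholesterol to lipoproteins, had 478 CPM in RGX-104 and 131 CPM in control pDC, a ratio of 3.66 (2.35 to 5.61), with UMIs in 8 of 9 and 33 of 53 cells. Genes of fatty acid synthesis on the same list followed. Srebf1, which switches on fatty acid synthesis genes, had 205 and 32.7 CPM (6.27-fold, 2.89 to 13.5). Scd2, a stearoyl-CoA desaturase, had 450.4 and 47.0 CPM (9.59-fold, 5.47 to 17.1), with UMIs in 9 of 9 and 16 of 53 cells. Fasn, fatty acid synthase, had 150.2 and 32.7 CPM (4.60-fold, 1.93 to 10.5). Mylip, the ubiquitin ligase of the LDL receptor, had 136 and 57.2 CPM (2.39-fold, 1.03 to 5.07). The remaining member that was 2-fold higher was Elovl5, a fatty acid elongase, with 5 and 16 UMIs. Fads2, a fatty acid desaturase, had 7 and 32 UMIs and did not pass (1.46-fold, 0.545 to 3.37). Pltp, the phospholipid transfer protein, was high in pDC of both chows, with 1201 CPM in RGX-104 and 743 CPM in control pDC, against 50.5 and 28.4 CPM in other APCs, and its ratio between chows was 1.62 (1.27 to 2.05).

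The lower members were Apoe, with 2 and 31 UMIs (0.431-fold, 0.0500 to 1.70), and Rgcc, a regulator of the cell cycle, with 4 and 125 UMIs (0.214-fold, 0.0574 to 0.562). Rgcc was 0.0714-fold without the 2 RGX-104 cells that had 2 markers. Of the receptors, Nr1h3 (LXR alpha) had no UMI in any pDC, and Nr1h2 (LXR beta) had 1 UMI in RGX-104 and 28 in control pDC, 13.7 and 57.2 CPM. The Nr1h2 difference was within counting error: none of the 4 measured receptor and partner genes had an interval that left out 1. Per cell, the summed LXR targets had a lowest, median and highest level of 1973, 3898 and 4381 CPM in RGX-104 pDC, against 575, 1513 and 4059 CPM in control pDC. The groups overlapped, but every RGX-104 cell lay above the control median.

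Higher levels were also seen for cholesterol synthesis and uptake. Of 25 listed genes 7 were measured, and of these 3 passed 2-fold upward and none downward. Their median log2 ratio was 0.70 (0.51 with TMM factors). The 20-UMI minimum favoured genes high in RGX-104 pDC here too, so this count and median lean upward. Pmvk and Idi1, with 16 control UMIs each, would not have reached it at their control levels. Summed over the list, RGX-104 pDC had 1802 CPM and control pDC 606 CPM, a ratio of 2.97 (2.40 to 3.66). Fdps, farnesyl diphosphate synthase, had 36 UMIs in RGX-104 and 24 in control pDC, 491 against 49.0 CPM, a ratio of 10.0 (5.82 to 17.6), with UMIs in 8 of 9 and 14 of 53 cells. Pmvk and Idi1, which stand before it in the mevalonate pathway, had ratios of 3.76 (1.47 to 9.04) and 3.34 (1.24 to 8.28). Per cell the list had a lowest, median and highest level of 483, 1736 and 3737 CPM in RGX-104 pDC, against 115, 518 and 2812 CPM in control pDC, so the ranges overlapped.

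The same lists in the other APC types give a scale, though a difference between types was not tested. Summed LXR targets had a ratio of RGX-104 over control of 2.11 in pDC, 3.99 in pre-DC2, 2.55 in rcDC1, 2.27 in mcDC1 and 1.80 in mono, and the other types lay between 1.46 in Gm26917+ mcDC and 2.43 in mcDC2. Summed cholesterol genes had 2.97 in pDC, 3.30 in pre-DC2, 2.38 in rcDC1, 1.57 in mcDC1 and 3.20 in mono, and the other types lay between 1.11 in Gm26917+ mcDC and 3.71 in macrophages. Fdps had a ratio of 10.0 in pDC and between 1.67 in mLC and 6.51 in macrophages among the other types with a value, and Abca1 21.4 in pDC and between 6.15 in macrophages and 90.0 in rcDC1.

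Other genes named by the same ranking were Ifi27l2a, an interferon-induced gene, and Crip1, a small LIM protein. Ifi27l2a had 2225 CPM in RGX-104 and 525 CPM in control pDC, a ratio of 4.24 (3.46 to 5.18). Without the 2 RGX-104 cells that had 2 markers it was 2.92. Crip1 had 1119 and 329 CPM, a ratio of 3.41 (2.58 to 4.47), and 1.55 without those 2 cells, since the other 7 cells held 28 of its 82 RGX-104 UMIs. Of the 16 measured interferon response genes, 4 were at least 2-fold higher (Ifi27l2a, Stat2, Trim30a and Slfn5) and 1 lower (Isg15, 1 and 38 UMIs). Of these, 3 of the higher genes and not Isg15 had an interval away from 1. With TMM factors 2 were higher and 3 lower, so the counts turn with the scaling, while the median log2 ratio was 0.27 (0.08 with TMM factors). Summed over the list, RGX-104 pDC had 11944 CPM and control pDC 8523 CPM, a ratio of 1.40 (1.30 to 1.51). The ratio was 1.33 (1.22 to 1.44) without those 2 cells and 1.18 (1.12 to 1.24) with the unannotated barcodes described below. The rise of the sum came mostly from a few strongly expressed members. In the 7 other RGX-104 cells against control, Ifi27l2a had 1530 and 525 CPM and Ly6a 2677 and 1543 CPM. Bst2, the largest member, had a ratio of 1.01 (0.882 to 1.14) there. In the other APC types Ifi27l2a had ratios between 0.214 in mcDC2 and 1.25 in pre-DC2.

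Class II genes were lower in the annotated RGX-104 pDC. None of 17 measured was at least 2-fold higher and 5 were at least 2-fold lower, with a median log2 ratio of -0.49 (-0.68 with TMM factors). H2-Ab1 had 587 CPM in RGX-104 and 2231 CPM in control pDC, a ratio of 0.263 (0.189 to 0.357). H2-Aa had 1188 and 3597 CPM, a ratio of 0.330 (0.263 to 0.410). Cd74, the invariant chain, had 5324 and 12181 CPM, a ratio of 0.437 (0.393 to 0.484). Ciita, their master regulator, had 0 UMIs in RGX-104 and 24 in control pDC, a number at which 0 in the smaller group is within counting error (ratio 0 to 1.11). Without the 2 cells with 2 markers the ratios were 0.343 for H2-Ab1, 0.435 for H2-Aa and 0.528 for Cd74.

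Some immediate-early genes stood lower beside them. Of 12 measured genes of the dissociation and stress response, none was at least 2-fold higher and 5 were lower (8 with TMM factors). Fosb had 123 CPM in RGX-104 and 623 CPM in control pDC (0.197-fold, 0.0894 to 0.380), Fos 396 and 1127 CPM (0.351-fold, 0.233 to 0.510) and Junb 409.5 and 1059 CPM (0.387-fold, 0.258 to 0.559). Without the 2 cells with 2 markers Fosb was 0.117-fold. Other immediate-early genes of the list did not pass, Nr4a1 at 0.715-fold (0.444 to 1.1), Btg2 at 0.726-fold (0.494 to 1.04) and Zfp36 at 0.694-fold (0.501 to 0.942). These genes answer to tissue digestion as well as to stimuli in the animal. Their part in the other differences was not tested. In the other APC types with a value, Fosb had ratios between 0.487 in pre-DC2 and 7.13 in macrophages.

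The remaining genes named as lower were Cd8a, Notch1 and Cd209a. Cd8a, the alpha chain of the co-receptor CD8, had 1 UMI in RGX-104 and 132 in control pDC, 13.7 and 269 CPM, a ratio of 0.0507 (0.00127 to 0.287). That UMI lay in 1 of the 2 cells with 2 markers. Cd8b1, the beta chain, had 12 and 100 UMIs, a ratio of 0.802 (0.401 to 1.46), and 0.178 without those 2 cells, which held 10 of the 12. It gave 12 of 18 T cell marker UMIs in RGX-104 and 100 of 131 in control pDC. Notch1 had 0 and 62 UMIs, 0 and 127 CPM, at least 3.09-fold lower against the floor. Cd209a, a C-type lectin, had 3 and 131 UMIs (0.153-fold, 0.0312 to 0.457), and 0.0681-fold without those 2 cells. Klf2, a factor of lymphocyte quiescence, had 300.3 and 912 CPM (0.329-fold, 0.204 to 0.505). Among pDC and lymphoid genes that were higher, Spib had 642 and 279.7 CPM (2.29-fold, 1.61 to 3.22) and Dntt 341 and 143 CPM (2.39-fold, 1.45 to 3.82). With unannotated barcodes that carry at least 4 of the 5 markers, described next, Notch1 was 0.667 (0.366 to 1.15), Spib 1.63 (1.25 to 2.12) and Dntt 1.97 (1.37 to 2.81), so none of these 3 was 2-fold apart.

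The share of pDC among annotated APCs was 0.948% in the RGX-104 library (9 of 949, Clopper-Pearson 0.434 to 1.79%) and 6.78% in the control library (53 of 782, 5.12 to 8.77%). Barcodes without an annotation bear on this share and on the gene values. At least 4 of the 5 markers were present in 14 of 5727 such RGX-104 barcodes and in 4 of 4465 control barcodes. Of the 14, 13 had gene numbers and mitochondrial shares within the limits of the annotated cells, and 2 had a T cell receptor contig. Of the 4, all were within the limits and 1 had a contig. At least 2 UMIs of 8 T cell, B cell and macrophage genes were present in 3 of the 14 and 1 of the 4. Among annotated pDC this held for 0 of 9 RGX-104 and 2 of 53 control cells. With these barcodes the share of all barcodes was 0.265% in the RGX-104 library (23 of 8671) and 0.776% in the control library (57 of 7346), a ratio of 0.342 (0.201 to 0.564), where annotated pDC alone had 0.144 (0.0624 to 0.294) over the same barcodes and 0.140 (0.0607 to 0.286) among annotated APCs.

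LXR targets and cholesterol genes stood higher in these RGX-104 barcodes too. In the unannotated barcodes alone the summed LXR targets had a ratio of RGX-104 over control of 2.13 (1.63 to 2.83) and the cholesterol genes one of 3.27 (2.16 to 5.14), beside 2.11 and 2.97 in annotated pDC. The control side of these ratios was 4 barcodes. Of these, 1 held 32 of the 62 LXR target UMIs, at 2638 CPM, and 12 of the 25 cholesterol gene UMIs. Over both kinds of barcode Abca1 had a ratio of 13.6 (6.01 to 36.2), Scd2 10.0, Srebf1 6.14, Abcg1 3.79 and Fdps 8.64. The lower class II and stress gene levels were not seen in these barcodes. The class II list had a ratio of 1.07 (1.0 to 1.15) in the unannotated barcodes, 0.542 (0.509 to 0.577) in annotated pDC and 0.857 (0.829 to 0.885) over both. H2-Ab1 had 0.853 (0.761 to 0.954), H2-Aa 0.933 (0.856 to 1.02) and Fosb 1.09 (0.892 to 1.32) over both. Summed stress genes had 1.31 (1.24 to 1.38) over both, against 0.499 (0.439 to 0.565) in annotated pDC. Of the 14 RGX-104 barcodes, 2 held 340 and 453 of the 1795 stress UMIs, and the barcode with 340 had 2 Siglech UMIs. Without these 2, a choice made after their values were seen, the stress genes had 0.939 (0.881 to 1.0), Fosb 0.752 (0.590 to 0.949) and Fos 0.563 (0.457 to 0.689) over both. Crip1 and Ifi27l2a had 1.94 and 2.49 over both, Cd8a 0.279 (0.158 to 0.462) and Rgcc 0.961 (0.695 to 1.31).

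**Figure D4:**
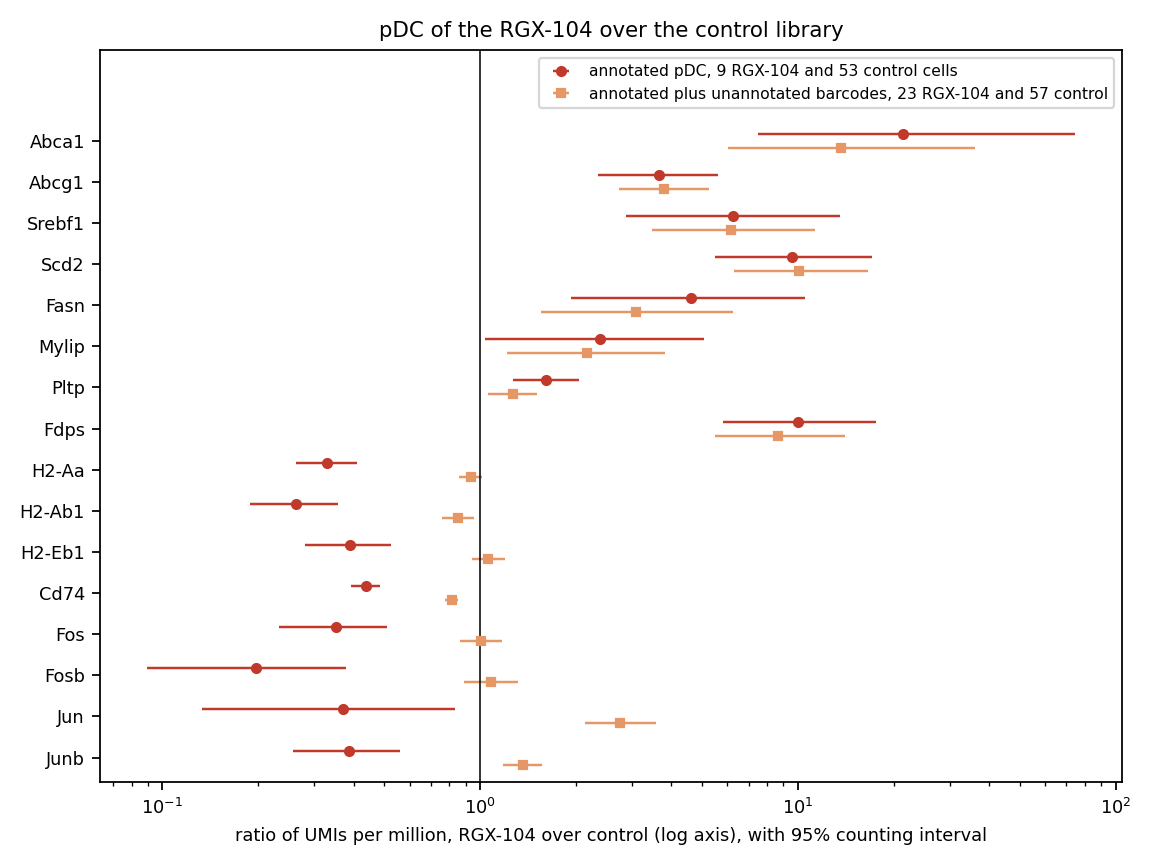
Ratio of CPM, RGX-104 over control pDC, on a log axis with 95% counting intervals, for annotated pDC (circles) and for annotated pDC plus unannotated barcodes with at least 4 of the 5 markers (squares). The 8 lipid genes at the top lie right of 1 in both, while the class II genes and Fosb lie between 0.197 and 0.437 in annotated pDC and between 0.813 and 1.09 with the added barcodes.

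**Figure D5:**
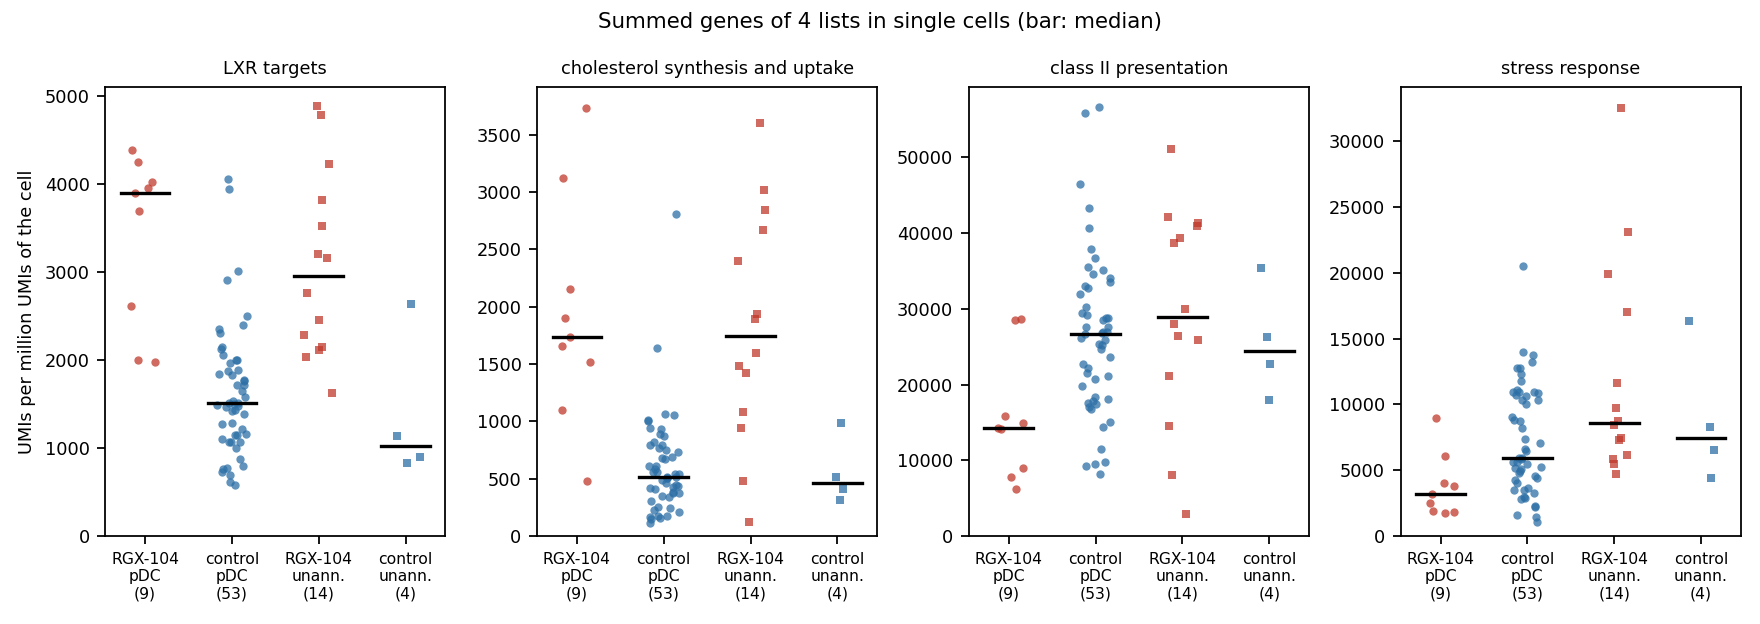
Summed CPM of 4 gene lists in each cell, for each annotated pDC (circles) and each unannotated barcode with at least 4 of the 5 markers (squares, labelled unann.), with the number of cells in brackets and the median as a bar, RGX-104 in red and control in blue. RGX-104 pDC had a median of 3898 and control pDC of 1513 CPM of LXR targets, and 14268 and 26738 CPM of class II genes.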

How the data were processed

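Counts of UMIs for 32285 genes in every barcode come from the deposited matrices, which Cell Ranger 5.0.0 wrote per the file headers. The genome build mm10 and Seurat 5.0.3 are named in the submitters' processing notes. The authors' deposited annotation tables give each cell a type name, its UMIs and genes, its mitochondrial percent, and cell cycle and doublet scores, which are unitless score values per the file headers. The deposited T cell receptor tables hold counts of UMIs per contig. The annotation carries no barcodes. Each annotated cell was joined to the barcode of its library with the same UMIs and genes, over genes seen in at least 3 barcodes, and the same mitochondrial percent. All 2944 RGX-104 and 2881 control cells matched exactly 1 barcode.

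UMIs were summed over cells and divided by their total (CPM). Ratios carry exact conditional binomial, CPM exact Poisson and shares Clopper-Pearson 95% intervals. With 1 library per group nothing was tested. Genes named are the 20 highest and 10 lowest in pDC of the control library (same direction in both libraries) and the 6 highest and 6 lowest between chows. The rank was by the interval's bound closest to 1, over measured genes that reached 50 CPM, without receptor, immunoglobulin, mitochondrial, ribosomal protein and unnamed genes. Members of 31 gene lists, which may also be named, and Cox6a1 come beside them. The lists, the markers and the cells were chosen with earlier results of these data known. Listed genes outside the files were 6. Alternatives were TMM factors (edgeR 4.0.16, R 4.3.3), totals without receptor, immunoglobulin, mitochondrial and ribosomal genes, other UMI minimums and folds, the mean of per-cell CPM, equal weights of types, and cells or barcodes left out or added. Scripts used Python 3.11.15, numpy 2.4.6, scipy 1.17.1 and pandas 2.3.3 and were tested on simulated data. Promoters and positions come from RefSeq tables of GRCm38.p6, where 26296 of 32245 symbols matched. No doublet caller was run: the annotation names singlets only.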

Additional observations from a re-analysis of the deposited data

Results flagged for a closer look

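Barcodes that the authors' annotation leaves out held cells with pDC transcripts. At least 4 of the 5 markers were found in 14 unannotated barcodes of the RGX-104 library, more than its 9 annotated pDC, and in 4 unannotated barcodes of the control library, beside 53 annotated pDC. These unannotated barcodes held 139377 UMIs in the RGX-104 and 44134 UMIs in the control library. The summed monocyte and macrophage markers stood at 258 CPM in the RGX-104 and 2923 CPM in the control barcodes, and T cell markers at 825 and 1563 CPM. The part of mixed droplets in these values was not tested.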

How the results depend on the processing

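No paired analysis was possible because each chow is 1 RNA library and no result comes from a test. Of 80 alternatives to the summary values, 61 stayed within 1.5 times the count or within the spread, and 19 moved. With TMM factors the genes higher in pDC numbered 1292 in the RGX-104 and 1142 in the control library, those lower in RGX-104 pDC 1622, and those higher in RGX-104 than control pDC 111. A 4-fold threshold gave 828 higher and 228 lower genes in the RGX-104 library and 557 higher and 650 lower in the control library. Between chows, 3-fold gave 25 higher and 216 lower genes. A minimum of 10 UMIs gave 555 higher genes between chows, and one of 50 UMIs gave 48 higher and 115 lower ones. The last also moved the median log2 ratio of cholesterol genes to 2.51. Each gene without its top cell left 1133 genes higher in RGX-104 pDC than in other APCs, and 107 higher and 870 lower between chows. With the unannotated barcodes 278 genes were lower between chows and the ratio of pDC shares was 0.342 over all barcodes, where annotated pDC alone had 0.144. Among single genes and list sums, 139 values stayed, 29 moved and 2 reversed: with the unannotated barcodes Fosb was 1.09 and the summed stress genes were 1.31 between chows, and 0.752 and 0.939 without the 2 barcodes that held most stress UMIs. Without the 2 RGX-104 cells that had 2 markers, chosen after seeing the data, 261 genes were higher and 581 lower between chows, and the median log2 ratios were 1.48 for LXR targets and 1.12 for cholesterol genes. The cause of these shifts was not tested, other than fewer genes passing a higher fold or UMI minimum. Leaving out a gene's top cell takes more from 9 cells than from 53 by construction. The 73260 UMIs of 9 RGX-104 cells limit every value between chows, and mouse to mouse spread is unknown.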

Other observations

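Other gene lists were also compared between the chows. Of 42 measured pDC surface and other genes, 1 was at least 2-fold higher in RGX-104 pDC and 5 were lower (Clec12a, Cd209d, Cdh1, Gria3 and Cd8a), and the list's sum was 29457 CPM in RGX-104 and 29551 CPM in control pDC. Of 15 measured homing genes, 1 was higher (Cxcr3, 6 and 18 UMIs) and 4 were lower, Klf2, Cxcr4 and Cd69 among them. Of 15 measured class I genes, 1 was higher (Sec22b, 10 and 24 UMIs) and none lower, with sums of 13104 and 12279 CPM. Of 13 measured cytochrome c oxidase genes none was 2-fold apart. The shares of measured genes past 2-fold were 5.27% higher and 11.1% lower.

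Transitional dendritic cell genes, which are known from cells between pDC and conventional dendritic cells, summed to 1256 CPM in RGX-104 and 582 CPM in control pDC, a ratio of 2.16 (1.69 to 2.74). Crip1 alone had 1119 and 329 CPM of these sums, 82 of 92 and 161 of 285 UMIs. Without the 2 RGX-104 cells that had 2 markers the list's ratio was 1.06 (0.723 to 1.52). In other APCs the list summed to 9321 CPM in the RGX-104 and 8698 CPM in the control library. In the unannotated barcodes Crip1 stood at 459 CPM in the RGX-104 and 634 CPM in the control barcodes.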
